A study of Mus musculus with 6 samples.

Results

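The chemokine receptors described here are 7 genes chosen by symbol: Cxcr1, Cxcr2, Cxcr4, Ccr1, Ccr2, Cx3cr1 and the atypical receptor Ccrl2. They are 7 of the 16840 genes in the deposited count table, and all 7 were among the 12340 genes that passed a filter on low counts and were tested. They were followed by RNA sequencing in cultured mouse alveolar macrophages, which live in the airspaces of the lung. There were 3 groups of 2 libraries, all of wild-type (WT) cells taken at day 2: cells not stimulated with GM-CSF, cells given GM-CSF (the labels' Ctrl), and cells given GM-CSF together with an agent that the labels name only by the letters DON. Below, the groups are called unstimulated, GM-CSF and DON. GM-CSF, granulocyte-macrophage colony-stimulating factor, is the cytokine on which alveolar macrophages depend for their development. The strain, age and number of mice, and whether the 2 libraries of a group came from separate cultures or animals, are not stated in the labels. The p-values below therefore measure only the spread between these libraries, which may be technical. The labels also enter AM as a cell line, without saying whether the cells were primary.

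Chemokine receptors are membrane-spanning proteins that couple mostly to Gi-type G proteins and steer leukocytes along gradients of small secreted chemokines. Cxcr1 and Cxcr2 bind the CXC chemokines that recruit neutrophils, Cxcr4 binds Cxcl12, Ccr1 and Ccr2 bind sets of CC chemokines, and Cx3cr1 binds the membrane-anchored chemokine Cx3cl1. Ccrl2 is an atypical member that holds the attractant chemerin at the cell surface without known G protein signalling. In the lung, Ccr2 and Cx3cr1 are commonly used to tell monocytes and interstitial macrophages from alveolar macrophages, in which both are low.

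The receptors lie in a few places of the mouse genome (GRCm38, GENCODE M21 annotation, all protein-coding). Cxcr2 (chr1:74153989-74161246, plus strand) and Cxcr1 (chr1:74191785-74194631, minus strand) are neighbours with 30.5 kb between them, and Cxcr4 (chr1:128588199-128592293, minus strand) is on the same chromosome. On chromosome 9 are Ccrl2 (chr9:111054486-111057519, minus strand), Cx3cr1 (chr9:119901616-120069879, minus strand), Ccr1 (chr9:123962124-123968692, minus strand) and Ccr2 (chr9:124101950-124113557, plus strand). Ccr1 and Ccr2 are 133 kb apart.

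The promoter windows of Cxcr2, Cxcr1 and Ccr1 are shown because the first fell most under GM-CSF among receptors with ample counts, the second is its close neighbour and rose most with DON, and the third is the member that rose under GM-CSF. Each runs 5′ to 3′ on the gene's own strand, from 250 bases before the RefSeq start site to 30 bases after it (RefSeq promoter table, GRCm38.p6). Capitals mark matches on either strand to the PU-box, GAGGAA, the core of sites bound by the macrophage transcription factor PU.1. On the minus strand of the gene the match reads as its reverse complement.
Cxcr2 (chr1:74153744-74154023, plus strand): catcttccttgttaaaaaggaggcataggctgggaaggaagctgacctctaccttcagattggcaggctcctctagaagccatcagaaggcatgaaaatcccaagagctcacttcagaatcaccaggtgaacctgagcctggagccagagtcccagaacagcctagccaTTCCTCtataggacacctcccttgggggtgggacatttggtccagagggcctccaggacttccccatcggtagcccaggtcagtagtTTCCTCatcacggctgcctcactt
Cxcr1 (chr1:74194602-74194881, minus strand): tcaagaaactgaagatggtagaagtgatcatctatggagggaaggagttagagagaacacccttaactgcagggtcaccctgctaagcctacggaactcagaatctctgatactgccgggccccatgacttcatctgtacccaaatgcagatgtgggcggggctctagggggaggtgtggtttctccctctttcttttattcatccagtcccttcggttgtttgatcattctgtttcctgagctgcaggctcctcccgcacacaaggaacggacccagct
Ccr1 (chr9:123968663-123968942, minus strand): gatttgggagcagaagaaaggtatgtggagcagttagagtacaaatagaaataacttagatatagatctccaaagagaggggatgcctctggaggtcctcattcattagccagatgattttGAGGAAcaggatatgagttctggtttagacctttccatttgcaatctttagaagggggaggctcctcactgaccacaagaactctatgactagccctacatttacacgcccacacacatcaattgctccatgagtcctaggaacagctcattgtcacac

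The Cxcr2 window held 2 PU-box matches, both on the minus strand of the gene, at -81 and 7 from the start site, and the Ccr1 window held 1 at -129 on the plus strand. The other 5 receptors had none in their windows. A PU-box match occurred in 28.3% of 32851 promoter windows of 300 bases in the table, so 2 of 7 receptors with a match is close to the share among all genes. No window of the 7 receptors (9 windows, since Ccrl2 has 3) matched TTCNNNGAA (a STAT element, 8.3% of windows), TGATGNAA (an ATF4 element, 3.97%) or TTGCNNAA (a C/EBP element, 10.8%). These are matches of letters and not measured sites, and motifs were searched on both strands without regard to overlap.

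Levels are given as CPM, each library's counts divided by its total after TMM scaling (the trimmed mean of M values), in each library in the order replicate 1 then 2. Changes are log2 fold changes ± SE from edgeR's quasi-likelihood test over all 6 libraries, with Benjamini-Hochberg adjustment over the 12340 tested genes, and a gene is called changed at an adjusted p under 0.05. Library totals were between 28321986 and 35196387 counts, and 3 counts, taken as the limit that a count of 0 allows, corresponded to 0.0880 to 0.105 CPM. Of the 14 alveolar macrophage markers examined, all were tested, and their summed level was 19609 to 20369 CPM in unstimulated cells, 19718 to 20046 with GM-CSF and 23382 to 23675 with DON. With GM-CSF 9 of them fell and 3 rose (7 and 3 without composition scaling), beside 29.3% and 27.5% of all tested genes. Their median log2 fold change was -0.32 against -0.02 over all genes tested. With DON added 8 rose and 4 fell, where 28.8% of all tested genes rose and 28.8% fell. The sum held opposite changes. Chi3l3 was at 1814 CPM unstimulated, 5543 with GM-CSF and 7702 with DON, while Lpl was 1.56-fold lower with GM-CSF. Emr1, which encodes the macrophage antigen F4/80, fell from 289 ± 14.4 to 54.4 ± 0.434 CPM (SD, n = 2). Car4 rose, from near the limit in unstimulated cells, at 0.226 ± 0.0159 CPM, to 656 ± 6.51 with GM-CSF.

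With GM-CSF, 4 of the 7 receptors fell (Cxcr1, Cxcr2, Cx3cr1 and Ccrl2), 1 rose (Ccr1) and 2 were not called (Cxcr4 and Ccr2). When DON was added to GM-CSF, 4 rose (Cxcr1, Cxcr2, Cxcr4 and Ccrl2), 1 fell (Ccr1) and 2 were not called (Ccr2 and Cx3cr1). Against unstimulated cells, the DON group had 2 receptors higher (Cxcr1 and Cxcr4), 3 lower (Cxcr2, Cx3cr1 and Ccrl2) and 2 not called (Ccr1 and Ccr2). These 3 comparisons share groups of libraries, so their calls are not independent of each other.

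In this experiment most genes changed, and the receptor counts are read against that background. GM-CSF changed 5 of 7 receptors and 56.8% of all tested genes, with 4 of 7 lower against 29.3% and 1 of 7 higher against 27.5%. A call together with a change of at least 2-fold was made for 4 of 7 receptors and for 11.7% of tested genes. DON added to GM-CSF changed 5 of 7 receptors against 57.6%, with 4 of 7 higher against 28.8%, 1 of 7 lower against 28.8%, and 4 of 7 called at 2-fold or more against 9.37%. For DON against unstimulated cells, 5 of 7 were called against 55.6%, 2 of 7 higher against 27.2%, 3 of 7 lower against 28.4%, and 4 of 7 at 2-fold or more against 11.6%. The receptors counted as lower and as 2-fold or more in both comparisons with unstimulated cells include Cx3cr1, which passed the filter on low counts only through those cells and could only be called lower there. Nothing is read from these counts beyond the receptors' own values. Without composition scaling the share of higher genes among those called moved from 48.4% to 63.0% with GM-CSF and from 48.9% to 61.6% for DON against unstimulated cells. That scaling shifted the median of all genes in these comparisons to 0.10 and 0.11, from -0.02 and 0.01, and changed no call or direction of the called receptors. The libraries of both groups did not overlap for 6, 7 and 7 of the 7 receptors in the 3 comparisons, against 78.7%, 79.4% and 77.6% of tested genes.

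**Figure D1:**
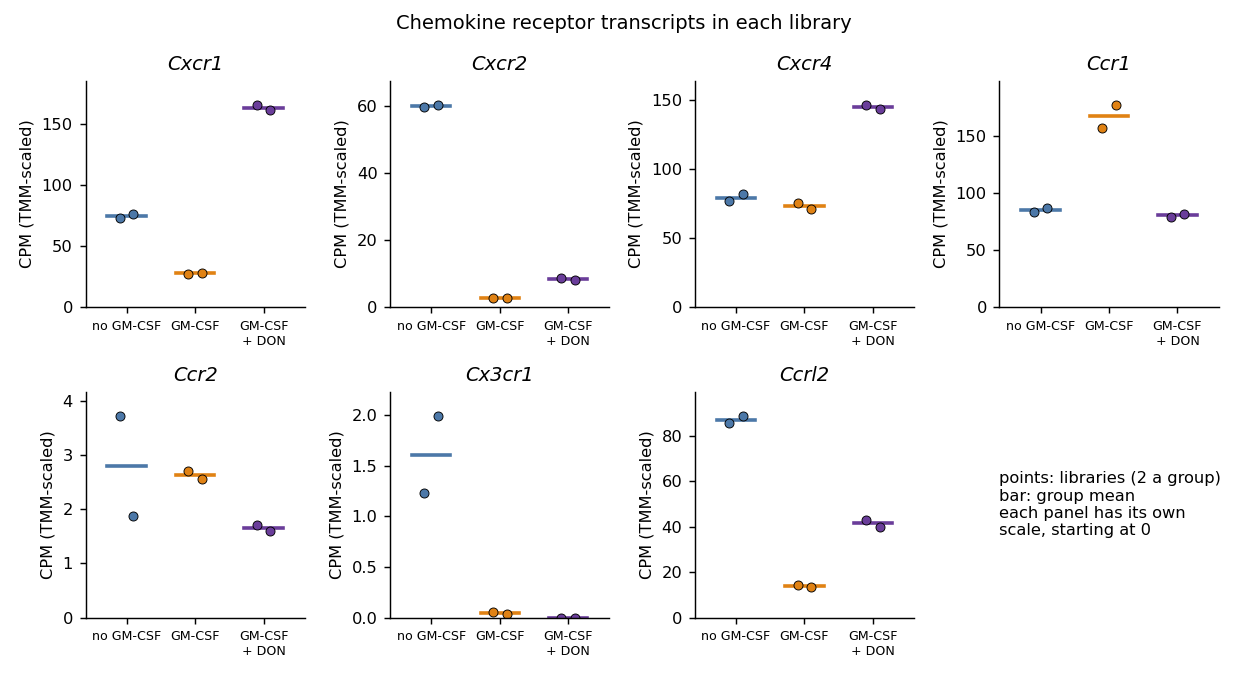
CPM (TMM-scaled, each panel on its own linear scale from 0) of the 7 receptors in the 6 libraries; points are libraries and bars are group means. Cxcr1 was lowest with GM-CSF and highest with DON (27.3 to 27.7 and 161 to 165 CPM), Cxcr2 was at 7.99 to 8.81 CPM with DON, and the unstimulated libraries were 1.87 and 3.72 CPM for Ccr2.

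Cxcr1, a receptor for neutrophil-recruiting CXC chemokines, fell with GM-CSF and then exceeded its unstimulated level when DON was present. It was at 73.0 and 75.8 CPM in unstimulated cells, at 27.3 and 27.7 CPM with GM-CSF, and at 165 and 161 CPM with DON. The 3 groups did not overlap, and the libraries with DON were the highest. The change was -1.43 ± 0.05 with GM-CSF (edgeR adjusted p = 1.01e-08), or 2.70-fold lower. DON added to GM-CSF raised it by 2.57 ± 0.05, or 5.92-fold (edgeR adjusted p = 5.38e-09). Against unstimulated cells the libraries with DON were higher by 1.13 ± 0.05 (edgeR adjusted p = 2.86e-08), or 2.19-fold.

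Cxcr2, the main murine receptor for Cxcl1 and Cxcl2, had the largest fall with GM-CSF among the 6 receptors other than Cx3cr1, whose fold rests on 3 counts. Cxcr2 was at 59.8 and 60.3 CPM in unstimulated cells, at 2.61 and 2.59 CPM with GM-CSF, and at 8.81 and 7.99 CPM with DON. The order of the groups differed from that of Cxcr1, since the libraries with DON lay between the others and far closer to those with GM-CSF. The fall with GM-CSF was -4.53 ± 0.09, or 23.1-fold (edgeR adjusted p = 1.73e-10). DON raised the level by 1.69 ± 0.10, or 3.22-fold (edgeR adjusted p = 7.52e-07), and left it 7.16-fold below the unstimulated libraries (-2.84 ± 0.07, edgeR adjusted p = 1.17e-09). The rise with DON was 1.04 when log2(FPKM + 1) was tested with limma, a scale that understates changes of low genes.

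Per length, the balance of these neighbouring receptors shifted toward Cxcr1. The ratio of Cxcr1 to Cxcr2 on the scale of FPKM, fragments per kilobase and library size as the authors gave it, was 3.67 and 3.81 in unstimulated cells. It was 31.7 and 32.6 with GM-CSF and 56.9 and 61.2 with DON. The 3 groups did not overlap in this ratio. The coding sequences of both genes, taken as the longest open reading frame of GENCODE M21 transcripts, were identical at 72.0% of 1048 aligned bases, and the longest run they shared was 14 bases.

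Genes of neutrophils and of other myeloid cells moved beside Cxcr2, in part in the same direction. Of the 13 neutrophil markers examined, 3 were tested: Csf3r, the G-CSF receptor, was at 15.0 ± 0.663, 0.545 ± 0.0589 and 0.941 ± 0.202 CPM (SD, n = 2) in the unstimulated, GM-CSF and DON groups, S100a8 at 16.6 ± 0.901, 4.05 ± 0.412 and 3.41 ± 0.520, and Mmp8 at 20.4 and 21.6 CPM unstimulated, 55.2 ± 1.97 with GM-CSF and 60.0 ± 3.08 with DON. Csf3r and S100a8 fell with GM-CSF and Mmp8 rose, and the summed level of the 7 markers with values was 51.3 to 54.5, 58.7 to 60.9 and 62.9 to 66.2 CPM. Camp, a granule gene of maturing neutrophils, had no counts in the 4 libraries without DON and 2 in those with it, Ltf, Lcn2 and Mmp9 had at most 14 counts in any group, and Ly6g, S100a9, Mpo, Elane, Retnlg and Ngp were not analysed here. Of the 14 markers of monocytes and interstitial macrophages, 7 were tested, 5 fell with GM-CSF and none rose. The shares of all tested genes were 29.3% lower and 27.5% higher. The summed level of the 11 with values was 729 to 748, 141 to 157 and 235 to 239.7 CPM. Most of that sum in each group was Trem2 alone (568 ± 12.6, 83.1 ± 2.29 and 155 ± 0.0990 CPM, SD, n = 2). The part of either marker list in the receptor levels was not tested. In bulk RNA, fewer cells of a type and less RNA per cell cannot be told apart.

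Cxcr4, the receptor of Cxcl12, was at 76.6 and 81.4 CPM in unstimulated cells and at 74.9 and 70.8 CPM with GM-CSF. With GM-CSF and DON it was at 146 and 143 CPM, above all 4 other libraries. The difference with GM-CSF was -0.12 ± 0.05, with a 95% interval from -0.23 to 0.00047, and was not called (edgeR adjusted p = 0.0828). DON raised Cxcr4 by 0.99 ± 0.05, or 1.98-fold, over GM-CSF alone (edgeR adjusted p = 3.20e-07). It was 1.83-fold above the unstimulated libraries (0.87 ± 0.05, edgeR adjusted p = 3.70e-07).

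Ccr1, a receptor of Ccl3, Ccl6 and Ccl9, moved opposite to the other called receptors with GM-CSF and again when DON was added. It was at 83.6 and 87.0 CPM in unstimulated cells, at 157 and 177 CPM with GM-CSF, and at 79.0 and 81.5 CPM with DON. The libraries with GM-CSF alone stood far above the other 4, whose groups did not overlap either. Ccr1 rose with GM-CSF by 0.97 ± 0.06, or 1.96-fold (edgeR adjusted p = 5.31e-07), and fell by 1.06 on the log2 scale, or 2.08-fold, when DON was added (SE 0.06, edgeR adjusted p = 5.45e-07). Between DON and unstimulated cells the difference was -0.09 ± 0.06 with a 95% interval from -0.23 to 0.05 (edgeR adjusted p = 0.253). That interval holds a fall of at most 0.23 on the log2 scale, which is smaller than either of the called changes.

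Ccr2, the receptor of Ccl2 and the marker of inflammatory monocytes, was low in every library. It had 121 and 63 counts in unstimulated cells, 92 and 76 with GM-CSF and 49 and 52 with DON, or 3.72 and 1.87, 2.70 and 2.55, and 1.71 and 1.60 CPM. The unstimulated libraries lay on both sides of those with GM-CSF, and the libraries with DON were the lowest. No change was called. The differences were -0.09 ± 0.28 with GM-CSF (edgeR adjusted p = 0.820), -0.67 ± 0.31 with DON added (edgeR adjusted p = 0.0876) and -0.75 ± 0.30 against unstimulated cells (edgeR adjusted p = 0.0583). Their 95% intervals ran from -0.72 to 0.55, from -1.35 to 0.02 and from -1.43 to -0.07. The outcome turned on the unstimulated libraries. Without replicate 1 of that group the difference with DON added had an edgeR adjusted p of 0.0189, without replicate 2 of 0.0144, and with only the 4 libraries compared of 0.0179, at the same size. Against unstimulated cells, leaving out replicate 2 gave -1.17 (edgeR adjusted p = 0.00108) and leaving out replicate 1 gave -0.18.

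The gene length implied by the ratio of the deposited counts to the deposited FPKM varied 1.30-fold across libraries for Ccr2 and between 1.09-fold and 1.10-fold for the other 6 receptors (Cx3cr1 over the 4 libraries with counts). How the counting treated reads that match more than 1 gene is not stated, so the level of Ccr2 is uncertain.

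Cx3cr1, the receptor of Cx3cl1, had 107 of its 110 counts in the unstimulated libraries. It had 40 and 67 counts there, 2 and 1 with GM-CSF and none in either library with DON. In CPM these were 1.23 and 1.99, 0.0587 and 0.0336, and 0, so that it passed the filter on low counts only through the unstimulated libraries. Against unstimulated cells Cx3cr1 could therefore only be called lower, so the p-values of those comparisons are not given. The ratio of unstimulated to GM-CSF counts was 34.4, with a counting interval (exact, 95%) from 11.5 to 170. Against a limit of 3 counts per library, Cx3cr1 was at least 16.5-fold lower with DON than in unstimulated cells. Between GM-CSF with and without DON both groups were at or under that limit and no fold is given (edgeR adjusted p = 0.119). Intervals and limits cover counting error only, since these reads carry no stated molecular identifiers. An antisense gene model, Gm33858, overlaps a short stretch of Cx3cr1 exons, and with no stated strand setting reads of both cannot be told apart there.

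Among markers of monocytes and interstitial macrophages, Treml4 (49.0 ± 0.392, 1.81 ± 0.381 and 1.11 ± 0.310 CPM, SD, n = 2) and Apoe (28.9 ± 1.69, 5.83 ± 1.13 and 11.5 ± 1.35) fell with GM-CSF beside Cx3cr1. They were 2 of the 5 that fell of 7 tested, and 2 were not called, with Nr4a1 at 0.06 ± 0.31. With DON added 3 of the 7 rose, Apoe among them (0.96 ± 0.14), and 3 fell, where 28.8% of all tested genes rose and 28.8% fell. Ly6c2, which defines classical monocytes, had 3, 0 and 0 counts in the 3 groups, and Ly6c1 had 0, 5 and 0.

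Ccrl2, the atypical receptor, followed the direction of Cxcr2 in each comparison. It was at 85.7 and 88.9 CPM in unstimulated cells, at 14.2 and 13.5 CPM with GM-CSF, and at 43.3 and 40.1 CPM with DON. The 3 groups did not overlap and the libraries with DON were in between. The fall with GM-CSF was -2.65 ± 0.06, or 6.29-fold (edgeR adjusted p = 7.61e-10). DON raised Ccrl2 by 1.59 ± 0.07 (edgeR adjusted p = 8.23e-08), to a level 2.10-fold below that of unstimulated cells (-1.07 ± 0.06, edgeR adjusted p = 1.72e-07).

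**Figure D2:**
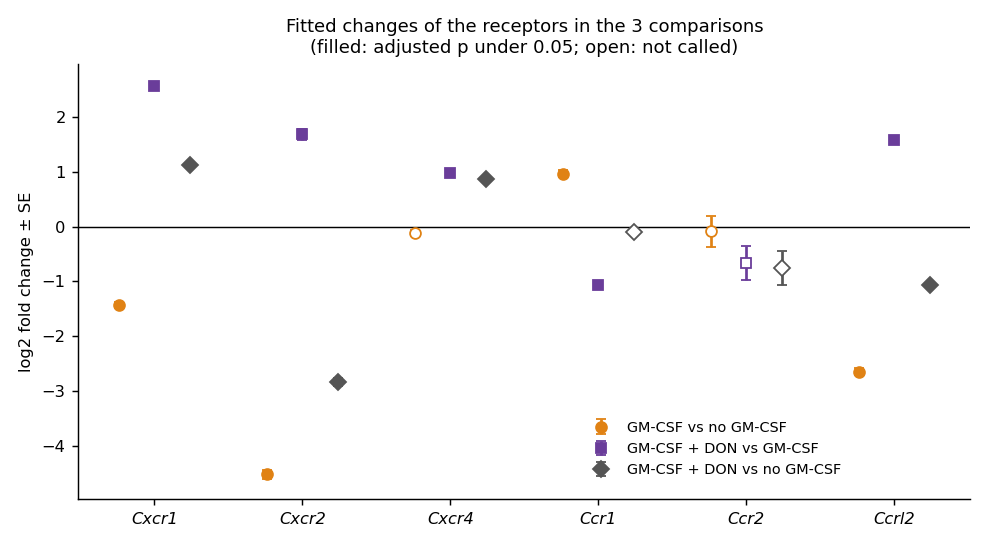
Log2 fold changes ± SE of 6 receptors in the 3 comparisons; filled symbols have an adjusted p under 0.05 in edgeR, and Cx3cr1 is omitted because it had no counts with DON. Cxcr1 has a negative value with GM-CSF (-1.43) and positive values in both comparisons of DON (2.57 and 1.13), Ccr1 is at 0.97 and -1.06 in the first 2 comparisons, and all 3 symbols of Ccr2 are open.

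Levels of different receptors were compared per length, on the authors' FPKM scale. In unstimulated cells the order from highest to lowest was Cxcr1 (79.3 ± 2.04 FPKM, SD, n = 2), Cxcr4 (55.2 ± 3.34), Ccrl2 (45.4 ± 1.04), Ccr1 (32.3 ± 0.827), Cxcr2 (21.2 ± 0.00707), Ccr2 (0.929 ± 0.429) and Cx3cr1 (0.454 ± 0.151). With GM-CSF it was Ccr1 (63.4 ± 5.31), Cxcr4 (51.2 ± 1.54), Cxcr1 (29.4 ± 0.395), Ccrl2 (7.24 ± 0.241), Cxcr2 (0.916 ± 0.00617), Ccr2 (0.779 ± 0.0353) and Cx3cr1 (0.0131 ± 0.00503). With GM-CSF and DON it was Cxcr1 (173 ± 3.08), Cxcr4 (98.5 ± 0.617), Ccr1 (30.2 ± 0.667), Ccrl2 (21.6 ± 1.16), Cxcr2 (2.94 ± 0.206), Ccr2 (0.515 ± 0.0694) and Cx3cr1 (listed at 0). No neighbours in these orders overlapped between libraries of a group, and the closest pair was Cxcr2 and Ccr2 with GM-CSF, 1.18-fold apart. Every receptor kept its place when CPM per kilobase of annotated exons replaced FPKM, an alternative chosen after the data were seen. Cxcr1 was at percentile 92.9 of the genes in the table in unstimulated cells, at 82.0 with GM-CSF and at 96.9 with DON, while Cxcr2 went from 77.7 to 37.9 and 47.1.

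The summed FPKM of the 7 receptors was 235 ± 6.99 (SD, n = 2) in unstimulated cells, 153 ± 3.94 with GM-CSF and 327 ± 4.46 with DON. Cxcr1 made up 33.8% ± 0.135 of it in unstimulated cells, 19.2% with GM-CSF and 52.9% with DON. The largest single share with GM-CSF was that of Ccr1, at 41.4%, against 13.7% in unstimulated cells and 9.25% with DON. Cxcr4 held 23.5%, 33.5% and 30.1%. The gene length implied by counts and FPKM was lower in both unstimulated libraries for every receptor measured there (0.885 and 0.898 kb for Cxcr1, against 0.952 to 0.968 kb in the other libraries). That length was computed with library totals, so the FPKM scale of that group differs from that of total counts by about that much. The TMM factors used for CPM differed in the same direction, at 0.945 and 0.957 in the unstimulated libraries and 1.01 to 1.03 in the others. The order within a group is left as it is.

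**Figure D3:**
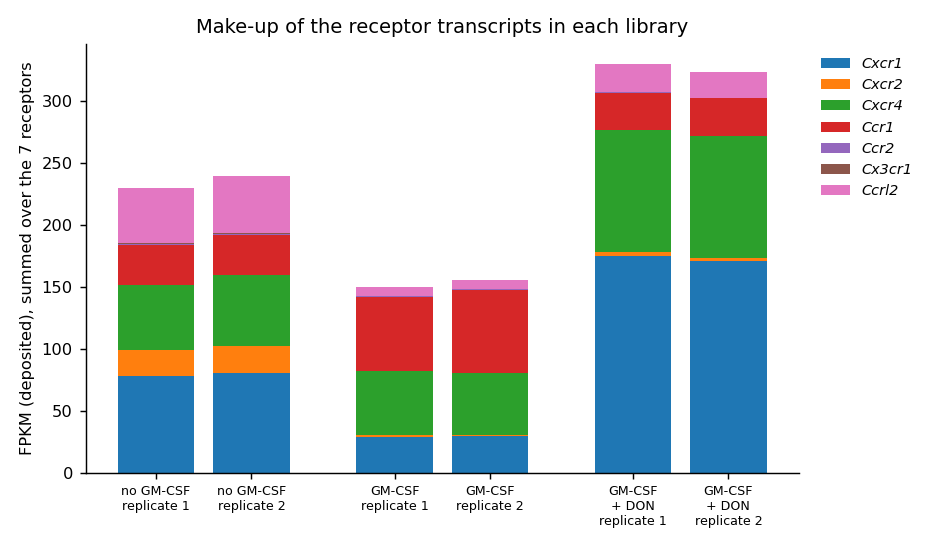
Deposited FPKM of the 7 receptors stacked for each library (linear axis from 0; colours are receptors). The bars reach 229.8 and 239.7 in unstimulated cells, 150.2 and 156 with GM-CSF and 329.8 and 324 with DON. The Cxcr1 segment (blue) is 52.9% of the bars with DON on average, and the segments of Ccr2 and Cx3cr1 are barely visible.

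The wider family was examined through 18 further chemokine receptor entries, of which 12 had values. Cxcr3, a receptor of T cells and other lymphocytes, had 22 counts in unstimulated cells and 0 in the other groups, at least 3.54-fold lower with GM-CSF. It passed the filter on low counts only through the unstimulated libraries, so its test is not given. Xcr1, with 23, 32 and 28 counts, was not called, and 9 further entries had too few counts to be tested.

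Of the chemokines that bind these receptors, most rose with GM-CSF and fell when DON was added. The list had 20 ligand entries, of which 16 had values and 13 were tested. With GM-CSF 10 rose and 3 fell, beside 27.5% and 29.3% of all tested genes. The median log2 fold change was 3.28 (2.96 with Ccl12 at its bound) against -0.02 over all genes tested. When DON was added none rose and 10 fell, where 28.8% of all tested genes rose and 28.8% fell. The median was -1.30 against 0.01, and Cxcl1, Cxcl2 and Pf4 were not called. Without composition scaling 11 fell. Against unstimulated cells, 8 were higher and 3 lower with DON (median 1.19 with Ccl12 at its bound, against 0.01). Of all tested genes 27.2% were higher and 28.4% lower there. As the ligands were chosen as a list with results of these data known, these medians are descriptions.

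Ccl2, the main ligand of Ccr2, was at 1.42 ± 0.0344 CPM (SD, n = 2) in unstimulated cells, 62.9 and 76.2 CPM with GM-CSF and 7.38 and 6.45 CPM with DON. It rose by 5.61 ± 0.14 with GM-CSF (edgeR adjusted p = 8.95e-10) and fell by 3.33 on the log2 scale with DON (SE 0.11, edgeR adjusted p = 2.77e-08), while Ccr2 itself was not called in either comparison. Ccl3, a ligand of Ccr1, was at 51.7 and 56.0 CPM, 695 and 669, and 280 and 274 in the 3 groups, so it and Ccr1 both rose with GM-CSF and fell with DON. Ccl6, a ligand of Ccr1, was the most abundant of the list in CPM, at 1282 ± 74.2, 16728 ± 623 and 14338 ± 535 (SD, n = 2). Ccl4 (2.36 ± 0.0144, 49.1 ± 4.43 and 6.19 ± 0.797 CPM) and Cxcl3 (1.09 ± 0.0264, 8.46 ± 0.658 and 2.48 ± 0.536 CPM) also rose with GM-CSF and fell with DON. Pf4 rose from 0.303 ± 0.0928 to 5.34 ± 0.577 CPM and was at 4.03 ± 0.116 with DON (edgeR adjusted p = 0.0565).

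The 3 ligands that fell with GM-CSF bind receptors that fell as well. Cxcl1, a ligand of Cxcr2, was at 1.79 ± 0.491, 0.237 ± 0.0447 and 0.466 ± 0.181 CPM, and Cxcl2 at 17.3 ± 2.17, 5.36 ± 0.930 and 4.65 ± 0.592 CPM (SD, n = 2). Cx3cl1, the ligand of Cx3cr1, was at 23.4 and 23.0 CPM, 13.1 and 10.9, and 3.74 and 4.73. It fell by 0.95 on the log2 scale with GM-CSF (SE 0.11, edgeR adjusted p = 3.42e-05) and by a further 1.50 with DON (SE 0.13, edgeR adjusted p = 7.04e-06). Cxcl3, which also binds Cxcr2, rose with GM-CSF, so the ligands of Cxcr2 did not move as 1 group. The ligand Ccl12 had 0, 30 and 3 counts, at least 5.18-fold higher with GM-CSF than in unstimulated cells (it passed the filter only through the libraries with GM-CSF), and its ratio of GM-CSF to DON was 9.58 (exact 95% counting interval 2.98 to 49.0). Cxcl12, the ligand of Cxcr4, had 1, 3 and 2 counts in the 3 groups and was not tested.

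**Figure D4:**
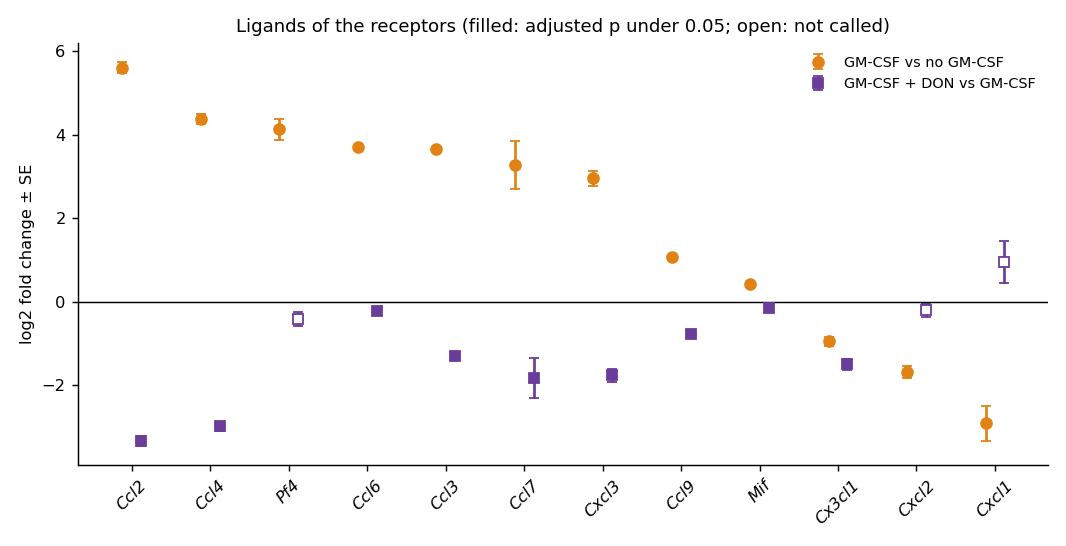
Log2 fold changes ± SE of 12 tested ligands with GM-CSF (circles) and with DON added to GM-CSF (squares), ordered by the first; filled symbols have an adjusted p under 0.05, and Ccl12 is omitted because it had no counts in unstimulated cells. Ligands on the left have circles above 0 and squares below 0, from Ccl2 (5.61 and -3.33) to Mif (0.42 and -0.16), and Cx3cl1 is below 0 in both.

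To find the genes that behaved most like each receptor, the distance was taken between log2 fold changes in the plane of the first 2 comparisons (GM-CSF, and DON added to it) over 7672 genes of at least 10 CPM on average. The coordinates share the libraries with GM-CSF alone. Cxcr1 was nearest to Tmem140 (distance 0.13, at -1.34 and 2.48), Tcp11l2 (0.18) and Gadd45a, a growth-arrest and stress gene (0.37), and 4 genes lay within 0.5 of it. Ccrl2 was nearest to Hpse, which encodes heparanase (0.21, at -2.78 and 1.42), Slpi, a secreted protease inhibitor (0.24), and the tetraspanin gene Cd37 (0.30), again with 4 genes within 0.5. Cxcr2 had no gene within 0.5, and the nearest was H2-M2 (0.77, at -3.91 and 2.15). By contrast the patterns of Ccr1 and Cxcr4 were common. There were 226 genes within 0.5 of Ccr1, the nearest Incenp (0.0073), Fam33a (0.027) and Rrm2 (0.043), and 409 within 0.5 of Cxcr4, the nearest Hspa8 (0.034), Sorbs3 (0.057) and Prkd2 (0.072). For Ccr2 1318 genes lay within 0.5, and for Cx3cr1, whose fitted values rest on counts of 0, no neighbours are given.

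The genes around the Cxcr2 and Cxcr1 pair were examined by position. Within 500 kb of Cxcr1 there were 14 other tested genes apart from Cxcr2: 7 fell and none rose with GM-CSF, and 10 rose and 1 fell when DON was added. Among all tested genes 29.3% fell with GM-CSF and 28.8% rose with DON. Of the 7 that fell with GM-CSF, only Rufy4 and Slc11a1 did so by 2-fold or more. The others lay between -0.17 (Ctdsp1) and -0.49 (Ttll4). Rufy4, on the far side of Cxcr2, changed by -1.87 ± 0.06 and then by 0.69 ± 0.06, and Slc11a1, an ion transporter of phagosomes, by -2.69 ± 0.06 and then by 0.73 ± 0.06. Tmbim1 was at -0.05 with GM-CSF, not called (edgeR adjusted p = 0.353), and rose by 0.84 with DON. Arpc2, nearer to Cxcr1 than either of the last pair, changed by -0.31 with GM-CSF and was not called with DON (0.05, edgeR adjusted p = 0.373). The highest value among these neighbours with DON was 1.49 ± 0.52 of Stk36, below the 2.57 ± 0.05 of Cxcr1.

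**Figure D5:**
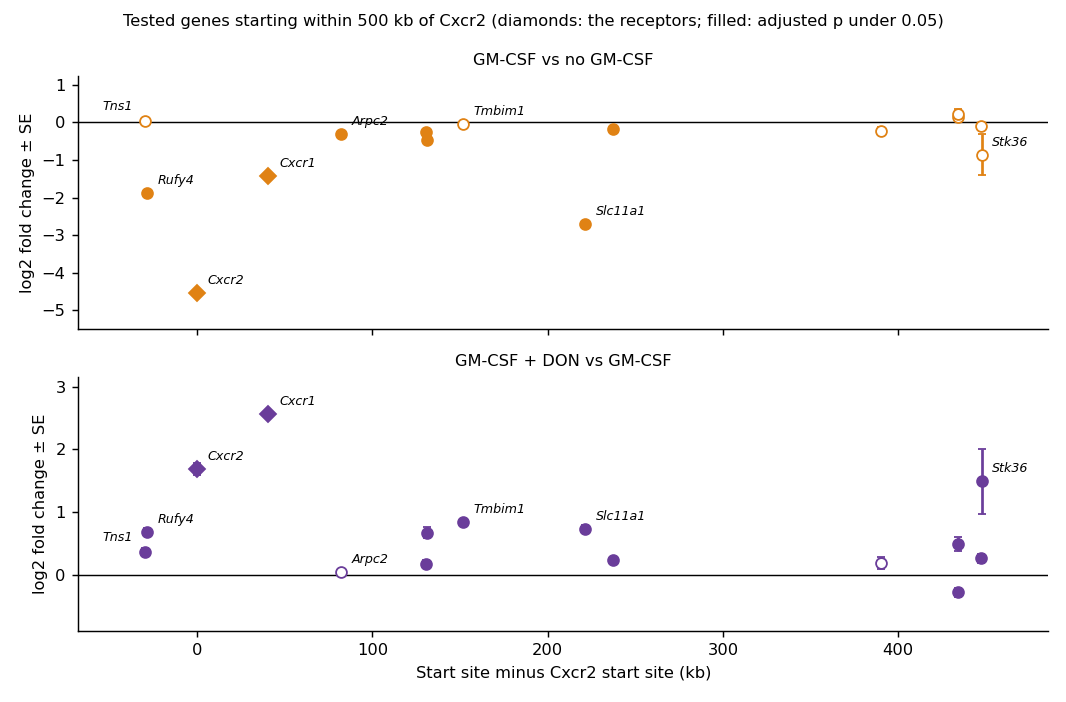
Log2 fold changes ± SE of tested genes whose start sites lie within 500 kb of that of Cxcr2, by the distance of start sites in kb (positive toward higher coordinates); diamonds are Cxcr2 and Cxcr1, circles other genes, and filled symbols have an adjusted p under 0.05. Upper panel, GM-CSF: Cxcr2 (-4.53), Slc11a1 (-2.69), Rufy4 (-1.87) and Cxcr1 (-1.43) lie lowest. Lower panel, DON added: Cxcr1 (2.57) and Cxcr2 (1.69) lie highest.

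The other receptors had fewer tested neighbours. Among all tested genes 27.5% rose and 29.3% fell with GM-CSF, and 28.8% rose and 28.8% fell with DON. Around Ccr1, 8 other genes were tested within 500 kb, of which 2 rose and 3 fell with GM-CSF and 2 rose and 4 fell with DON. Around Cxcr4, 6 were tested, with 4 higher and 1 lower with GM-CSF and none higher and 2 lower with DON, whereas Cxcr4 itself rose with DON. Around Cx3cr1, 9 were tested, with 4 higher and none lower with GM-CSF and 1 higher and 4 lower with DON. Csrnp1, Gorasp1 and Wdr48 overlap the annotated span of Cx3cr1. With GM-CSF Csrnp1 changed by 2.05 ± 0.12, while Gorasp1 (-0.08) and Wdr48 (0.11) were not called. Around Ccrl2, 9 were tested, with 1 higher and 2 lower with GM-CSF and 2 higher and 4 lower with DON.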

How the data were processed

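RNA of 6 libraries had been sequenced. The submitters' processing notes name, without roles, the build mm10 and the tools DESeq2 1.28.1, featureCounts, STAR 2.6.0a and Subread 1.4.6; annotation, strand and filters are not stated in the labels or files. The authors deposited whole-number counts per gene for 16840 symbols and a table of FPKM values for the same genes. No deposited column was left unused. Titles and treatment labels gave the groups and replicate numbers.

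Counts were fitted with edgeR 4.0.16 (filterByExpr, minimum count 10; TMM; 1 coefficient per group; quasi-likelihood test, two-sided) in R 4.3.3. Benjamini-Hochberg adjustment ran over 12340 genes and the threshold was 0.05. The fit had 3 residual and 6.74 prior degrees of freedom, which also set the 95% intervals of fold changes. FPKM values were used for levels between genes and in limma 3.58.1 on log2 with pseudocounts of 0.1 and 1. DESeq2 1.42.0 was an alternative. The fit was tested on simulated data. Coding sequences and coordinates came from GENCODE M21, promoters from RefSeq (all 7 receptors matched), and alignments from Biopython 1.88.

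The receptors and the 12 gene lists were chosen with earlier results of these data known. Genes named beyond the receptors were the 3 nearest in pattern, list members called and changed at least 2-fold with a mean of at least 1 CPM (up to 6 a list), and genes within 500 kb; other list members named were chosen after their values were seen. Replicates of a group differed by more than sampling noise, with a chi-square of 8.46, 5.29 and 4.50 per degree of freedom in the unstimulated, GM-CSF and DON groups. Some genes of the lists are not reported here.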

Additional observations from a re-analysis of the deposited data

How the results depend on the processing

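Over 21 fold changes of the receptors and 301 alternative values (RLE or total-count scaling, no filter, DESeq2, only the groups compared, a replicate block, each library left out, and limma on FPKM), 297 kept their direction where called and their side of the threshold, 4 passed it newly, and none lost its call or reversed. All 4 were Ccr2, which depends on the unstimulated libraries. The number of receptors lower with DON added to GM-CSF was 2 in place of 1 with only the groups compared, and 1 to 2 with a library left out. The limma tests on log2(FPKM + 1) shrank the lowest genes most, with 1.04 for Cxcr2 with DON and -0.52 for Cx3cr1 with GM-CSF.

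Deviations of same-numbered libraries correlated at -0.0476 (unstimulated and GM-CSF), -0.311 (unstimulated and DON) and 0.0676 (GM-CSF and DON). What lay behind the negative value of -0.311 was not tested. With the replicate block 5 receptors were called in each comparison, and 6708, 6882 and 6542 genes in place of 7014, 7111 and 6859. Crossing the numbers between unstimulated and DON libraries, tried after seeing the data, gave 5 receptors and 7063 genes. Depth limited Ccr2 and Cx3cr1, with at most 121 and 67 counts in a library.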

Other observations

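Receptors of other chemoattractants did not move as 1 group. Of 20 entries 17 had values and 15 were tested. With GM-CSF 7 rose and 7 fell, beside 27.5% and 29.3% of all tested genes (median -0.39 against -0.02 over all genes). With DON added 4 rose and 8 fell, where 28.8% of all tested genes rose and 28.8% fell. The median was -0.58 against 0.01, and 3 rose under RLE and under total-count scaling. C5ar1, the receptor of complement C5a, fell with GM-CSF from 8.49 ± 0.954 to 0.560 ± 0.0796 CPM (SD, n = 2) and rose to 1.18 ± 0.192 with DON, the directions of Cxcr2. Fpr1, a receptor of formylated peptides, fell from 17.2 ± 0.247 to 3.68 ± 1.07 CPM and was at 3.09 ± 0.376 with DON (edgeR adjusted p = 0.261). Cmklr1, the signalling receptor for the chemerin that Ccrl2 binds, had the directions opposite to Ccrl2, at 0.406 ± 0.182, 2.94 ± 0.496 and 0.629 ± 0.197 CPM. Gpr35 (5.95 ± 0.240, 20.5 ± 3.61 and 3.73 ± 0.283 CPM) and P2ry12, an ADP receptor (2.43 ± 0.133, 5.67 ± 0.523 and 1.46 ± 0.0177 CPM), also rose with GM-CSF and fell with DON. The niacin receptor gene Niacr1 rose with GM-CSF from 54.8 ± 5.83 to 392 ± 6.94 CPM and again with DON to 529 ± 5.65.

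Downstream of the receptors, 38 genes of G proteins, kinases, arrestins and regulators had values and 35 were tested. With GM-CSF 6 rose and 21 fell (11 and 16 without composition scaling, where Gnaq changed sign), beside 27.5% and 29.3% of all tested genes. With DON added 7 rose and 18 fell (6 and 18 without composition scaling), where 28.8% of all tested genes rose and 28.8% fell. The medians were -0.21 and -0.31 against -0.02 and 0.01 over all genes. Rgs2, a GTPase-activating inhibitor of G protein signalling, was at 137 CPM in unstimulated cells, 41.0 with GM-CSF and 26.9 with DON, and fell in both comparisons (-1.75 and -0.60).

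Markers of further cell types were summed over the genes with values. Dendritic cell markers were at 8.68 to 8.95 CPM in unstimulated cells, 27.9 to 28.3 with GM-CSF and 25.6 to 25.8 with DON. Lymphocyte markers were at 1.37 to 1.97, 0.839 to 1.17 and 0.676 to 1.15 CPM. Epithelial markers were at 16.4 to 19.4, 96.6 to 102 and 26.5 to 27.0 CPM, a sum made mostly of Cdh1 (13.8 ± 3.33, 98.0 ± 3.62 and 25.6 ± 0.704 CPM, SD, n = 2). Of the 5 tested epithelial markers Cdh1 alone rose with GM-CSF, Epcam and Scgb1a1 fell, and the median log2 fold change was -1.27. Of all tested genes 27.5% rose and 29.3% fell. Sftpc and Sftpb, which define surfactant-secreting alveolar cells, had at most 3 counts in any group. Stromal and endothelial markers were at 0.430 to 0.772, 1.75 to 1.88 and 1.50 to 1.60 CPM. Of eosinophil, basophil and mast cell markers Kit alone had a value, at most 0.101 CPM.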
